A study of Mus musculus with 4 samples.

Results

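The genes Cxcl9, Cxcl10 and Cxcr3 were examined in single cells of gonadal white adipose tissue (gWAT) from aged mice. Members were the rows of the gene table whose symbol was Cxcl9, Cxcl10, Cxcl11 or Cxcr3. Of these 4 symbols, 3 had a row among the 31054 gene rows, and Cxcl11 was not analysed here. They were chosen by their levels over cell classes and libraries in these same data, so all their levels are descriptions and no test was made on them.

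Cells came from the stromal vascular fraction of gWAT of 18-month-old male mice carrying p16-CreERT2 and R26-LSL-tdTomato, which all 4 groups shared, as they did the tamoxifen injections. In this model tamoxifen lets a Cre recombinase driven by the p16 (Cdkn2a) promoter switch on the red fluorescent protein tdTomato for good, so Tom+ marks cells in which that promoter was active at injection, or their descendants, and not the Cdkn2a mRNA at harvest. Cells were stained for CD31 and for CD45, a leukocyte surface protein, and sorted into 4 libraries, 1 for each combination of a CD45 label (- or +) with a Tom label (- or +). The label of each sample gives these groups, but the sorting protocol names CD45- Tom- 2 times and CD45+ Tom- not at all, so the identity of the library labelled CD45+ Tom- rests on its label. Each library was a group of its own, and the number of mice behind each was not given in the sources used here. No difference below therefore has a replicate check, any comparison sets 1 library against another and not 1 condition against another, and all intervals are 95% intervals that cover counting error only.

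CXCL9, CXCL10 and CXCL11 are small secreted chemokines that share the receptor CXCR3, a G protein-coupled receptor of activated T cells and natural killer cells. Their genes are classical targets of interferon gamma, which signals through IFNGR1 and IFNGR2 and the kinases JAK1 and JAK2. Cxcl10 is also induced by type I interferons and by NF-kappa B. In adipose tissue the system is best known for recruiting T cells during inflammation.

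In the GENCODE annotation of mm10 (GRCm38), Cxcl9 (ENSMUSG00000029417) lay on the minus strand at chr5:92321347-92328079 and Cxcl10 (ENSMUSG00000034855) on the same strand at chr5:92346638-92348889. They were 18558 bases apart. Cxcl11 followed after another 10654 bases, annotated as a polymorphic pseudogene, and Art3, on the plus strand, spanned Cxcl10 and Cxcl11. Cxcr3 (ENSMUSG00000050232) lay at chrX:101731535-101734269 on the minus strand. The 250 bases before the start of each chemokine gene are shown because these neighbours had different source cells. The sequences are RefSeq's for GRCm38.p6, read 5′ to 3′ on the gene's strand, at chr5:92328080-92328329 for Cxcl9 and chr5:92348890-92349139 for Cxcl10, with motif matches in capitals.
Cxcl9: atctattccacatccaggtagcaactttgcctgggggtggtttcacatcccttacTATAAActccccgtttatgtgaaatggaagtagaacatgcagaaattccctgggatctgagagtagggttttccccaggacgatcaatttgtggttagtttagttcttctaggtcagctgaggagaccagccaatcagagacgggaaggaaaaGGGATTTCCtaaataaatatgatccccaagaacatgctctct
Cxcl10: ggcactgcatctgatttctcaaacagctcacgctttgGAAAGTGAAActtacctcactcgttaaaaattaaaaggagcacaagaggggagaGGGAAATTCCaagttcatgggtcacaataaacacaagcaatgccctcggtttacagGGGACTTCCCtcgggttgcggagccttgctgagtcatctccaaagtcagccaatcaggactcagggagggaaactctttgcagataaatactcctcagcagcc
The motifs were searched on both strands. The core of the interferon-stimulated response element, written as a pair of GAAA with any 2 bases between them, was matched at 213 to 204 bases before the Cxcl10 start and not in the Cxcl9 window. It occurs in 2.98% of 32851 promoters of the same length. Kappa B sites, searched as GGGA, any 2 bases, T, any base and CC, or as GGGANTTCC and found in 4.4% of promoters, were matched at 159 to 150 and at 103 to 94 bases before the Cxcl10 start and at 42 to 34 bases before the Cxcl9 start. The letters TATAAA, present in 12.4% of promoters, were matched at 195 to 190 bases before the Cxcl9 start. The gamma-activated site TTCNNNGAA, present in 7.02% of promoters, was in neither window. These matches describe letters and do not show binding.

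After filtering, 13878 cells remained, from 1927 to 4391 per library, with median depths of 18331 to 19502 unique molecular identifiers (UMIs, each standing for 1 captured transcript) per cell. The reporter followed its label, with 713 and 715 counts per 1000000 UMIs (CPM) of tdTomato in the Tom+ libraries and 16.0 and 18.8 CPM in the Tom- libraries. The CD45 label did not separate leukocytes: Ptprc, which encodes CD45, had a UMI in 80.3% and 78.8% of cells in the Tom+ libraries labelled CD45- and CD45+, and in 49.5% and 52.2% of those in the Tom- libraries. Libraries are therefore named by their labels, and cells by marker-defined classes whose names end in -like. Libraries also shared cell barcodes. Both Tom- libraries had 4394 barcodes in common, and each of the other 5 pairs had between 26 and 1134. In a shared pair the smaller copy held a median of 1.06% to 6.96% of the UMIs of the larger, and at most 14 barcodes of any pair passed the filters in both. Of the kept cells, 603 in CD45- Tom+, 1419 in CD45- Tom-, 222 in CD45+ Tom+ and 1301 in CD45+ Tom- had a barcode that another library also held, so results are also given without them where they changed.

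Over all cells, Cxcl9 was measured at 17.0 CPM (16.2 to 17.9) in CD45- Tom+, 21.2 CPM (20.2 to 22.3) in CD45- Tom-, 7.81 CPM (7.04 to 8.65) in CD45+ Tom+ and 26.0 CPM (25.0 to 27.1) in CD45+ Tom-. Cxcl10 was measured at 53.4 CPM (51.9 to 54.9), 83.2 CPM (81.2 to 85.3), 46.3 CPM (44.3 to 48.2) and 73.0 CPM (71.2 to 74.7) in the same order. Cxcr3 was measured at 3.56 CPM (3.19 to 3.96), 3.44 CPM (3.03 to 3.88), 2.99 CPM (2.52 to 3.52) and 4.25 CPM (3.84 to 4.70). Both ligands were lowest in the library labelled CD45+ Tom+ and lower in each Tom+ library than in its Tom- partner. For the receptor, the intervals of both CD45- libraries overlapped.

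**Figure D1:**
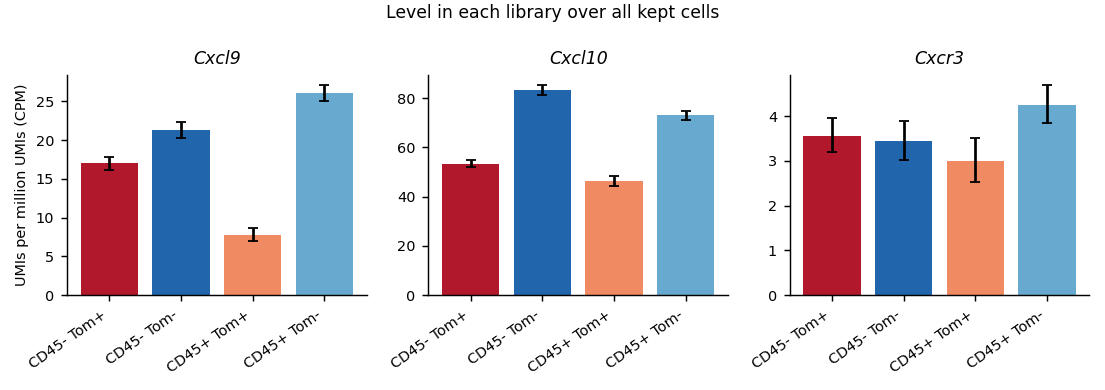
Level of Cxcl9, Cxcl10 and Cxcr3 in each of the 4 libraries, as UMIs per 1000000 UMIs (CPM) summed over all kept cells. Bars are levels and whiskers are 95% Poisson intervals for counting error, with 1 library per bar; Cxcl9 is lowest, at 7.81 CPM, in the library labelled CD45+ Tom+.

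These levels rested on few cells, and most of all for Cxcl9. Of 5952 Cxcl9 UMIs, 77.1% were in the top 1% of cells (139 cells), and 27 cells held 50%. Those numbers were 3, 11, 8 and 11 cells in the libraries taken separately. A cell of the library labelled CD45- Tom+ alone carried 557 Cxcl9 UMIs, 34.3% of its library's and 9.36% of all. The cell was an APC-like cell (adipose progenitor cell) with 30709 UMIs, 538 UMIs of Dcn, which encodes the fibroblast proteoglycan decorin, 17 of Cxcl10, 53 of Gbp2 (an interferon-induced GTPase) and 1 of tdTomato. It had UMIs of 7 of the 8 APC markers, and its barcode was in no other library. Without the cell holding most Cxcl9 UMIs in each library, the level there was 11.2 CPM instead of 17.0.

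Cxcl10 was spread over more cells. Of its 20149 UMIs, 45.3% were in the top 1% of cells and 172 cells held 50%, with at most 291 UMIs in a cell. Cxcr3, with 1126 UMIs in all, reached at most 11 UMIs in a cell, and 477 of its 719 positive cells had exactly 1. A UMI of Cxcl9 was found in 808 cells (5.82%), of Cxcl10 in 2412 (17.4%) and of Cxcr3 in 719 (5.18%). Cells with at least 10 UMIs numbered 108 for Cxcl9 and 519 for Cxcl10, and they held 72.9% and 77.9% of the gene's UMIs.

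**Figure D2:**
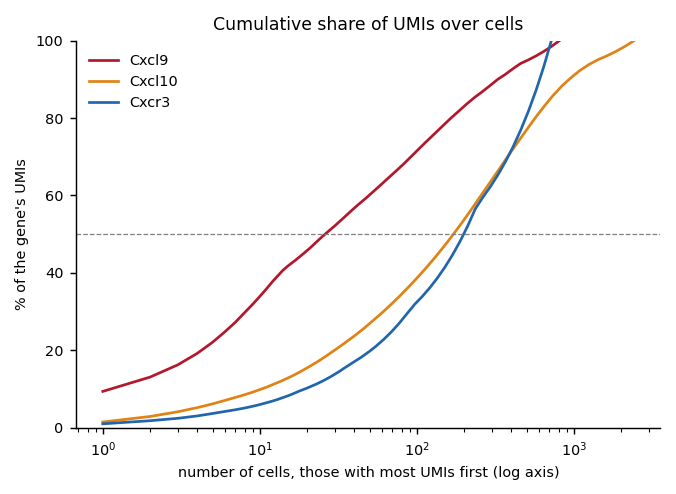
Cumulative share of each gene's UMIs, in percent, against the number of cells on a log axis, with the cells holding most UMIs placed left. The dashed line marks 50%, which Cxcl9 reached at 27 cells, Cxcl10 at 172 and Cxcr3 at 199.

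Cxcl9 had its highest level in blood endothelial-like cells and its largest amount in APC-like cells. The 359 blood endothelial-like cells, 2.59% of all cells, had 289 CPM (272 to 306) and held 19.4% of the UMIs. Their level was 227 CPM in the library labelled CD45- Tom+, 398 CPM in CD45- Tom-, 221 CPM in CD45+ Tom+ and 303 CPM in CD45+ Tom-. In CD45- Tom-, 146 of the 356 UMIs were in 1 cell. Over the class, 54.3% of cells had a UMI, from 49.4% to 56.8% over the libraries, and 28 cells held 50% of the class's UMIs. Its sub-clusters differed, with a UMI in 137 of 201 cells (436 CPM) of the largest, led by Cldn5 and Gpihbp1, but in 7 of 46 cells (42.6 CPM) of one led by Rbp7 and in 2 of 28 cells (52.6 CPM) of one led by Vwf, where 31 of 32 UMIs were in 1 cell. A small vascular sub-cluster of 52 cells, in which all 7 blood endothelial and all 6 mural markers were raised, had 113 CPM (93.0 to 135).

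The 3595 APC-like cells had 39.9 CPM (38.5 to 41.2) of Cxcl9 and held 57.4% of all its UMIs, but only 11.5% of them had a UMI and 9 cells held 50% of the class's UMIs. Their level was 136 CPM in the library labelled CD45- Tom+, 25.6 CPM in CD45- Tom-, 42.1 CPM in CD45+ Tom+ and 37.9 CPM in CD45+ Tom-. The first of these values contained the cell with 557 UMIs. Cluster 24, of 107 cells, with 8 of 8 APC markers and 5 of 6 plasma cell markers raised and hence unnamed, had 54.8 CPM, of which 220 of 264 UMIs were in 1 cell.

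Among myeloid cells Cxcl9 was concentrated further. The 2674 macrophage-like cells had 13 CPM (12.1 to 13.9), with a UMI in 2.77% of cells, and 5 cells held 50% of it. By library the level was 9.21 CPM in CD45- Tom+, 24.1 CPM in CD45- Tom-, 3.31 CPM in CD45+ Tom+ and 15.4 CPM in CD45+ Tom-. The 72 cells of a pair of dendritic sub-clusters led by Xcr1 and Clec9a, markers of dendritic cells that cross-present antigen, had 50.8 CPM (41.0 to 62.2), with 43 of 93 UMIs in 1 cell. Mast-like cells, taken as a class that should lack the gene, had 0 UMIs in 617 cells, which allows a share of cells with a UMI of up to 0.486% (3 cells of 617), at a median depth of 6339 UMIs per cell. Natural killer-like and CD8 T-like cells had 0 UMIs in 131 and 393 cells. Blood endothelial-like cells were nearly as shallow as mast-like cells, with a median of 8826 UMIs, while APC-like cells had 22403. With every cell thinned to 2000 UMIs, the share with a Cxcl9 UMI was 31.2% in blood endothelial-like, 2.51% in APC-like and 0.904% in macrophage-like cells.

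Cxcl10 had other sources. Its highest level and its largest amount were in cluster 8, 764 cells led by Cxcl13, Saa3 and Cxcl5, in which all 7 mesothelial and 7 of 8 APC markers were raised, so that it took neither name. This cluster had 302 CPM (295 to 309) and held 35.3% of all Cxcl10 UMIs. Its level was 312 CPM in the library labelled CD45- Tom+, 295 CPM in CD45- Tom-, 168 CPM in CD45+ Tom+ and 346 CPM in CD45+ Tom-, so the library labelled CD45+ Tom+ was low and the other 3 lay near each other. A UMI was found in 57.7% of its cells, and 52 cells held 50% of its UMIs. Thinned to 2000 UMIs, 26.7% of the cells kept 1, against 0.757% of mast-like cells, in which 2.92% of cells had a UMI before thinning.

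Mesothelial-like cells, the lining of the fat pad's surface, came next, beside cluster 23, 117 unnamed cells at 133 CPM. In that cluster 111 of 247 UMIs were in 1 cell, and the level was 203 CPM in CD45- Tom+ and 50.5 CPM in CD45+ Tom+, with 3 and 2 cells in the Tom- libraries. The 845 mesothelial-like cells had 130 CPM (126 to 134) of Cxcl10, with a UMI in 45.6%, and held 16.4% of the UMIs. Over the libraries their levels were 130 CPM in CD45- Tom+, 149 CPM in CD45- Tom-, 101 CPM in CD45+ Tom+ and 114 CPM in CD45+ Tom-. APC-like cells had 52.8 CPM (51.3 to 54.4), with a UMI in 14.6%, and held 22.4%. Their levels were 40.1, 55.0, 56.3 and 52.6 CPM of Cxcl10 in the same order.

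The border between these stromal classes depended on the clustering. At a finer Leiden resolution (2 instead of 1), mesothelial-like cells and the unnamed cluster with all mesothelial markers raised held 28.4% of Cxcl10 UMIs instead of 51.7%, and APC-like cells 46.4% instead of 22.4%. The shares of Cxcl9 in APC-like and in vascular cells moved by less at that resolution.

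Plasma-like cells held 10.1% of the Cxcl10 UMIs, at 40.5 CPM (38.7 to 42.3). Their level was 37.1 CPM in the library labelled CD45- Tom+, 75.2 CPM in CD45- Tom-, 47.5 CPM in CD45+ Tom+ and 12.8 CPM in CD45+ Tom-, and the Tom- libraries had only 39 and 58 such cells. In the 62 plasma-like cells with at least 10 Cxcl10 UMIs, the 8 APC markers summed to 140 CPM, against 56.2 CPM in plasma-like cells with 0. Per cell, that sum ran from 0 to 2857 CPM with a median of 34.9 among the former, and the median was 36.9 among the latter. Counted at any level, 4 of the 8 markers were at least 2-fold higher in the former, and 1 of the 8 was at 0 there. The share of all genes, 0.48%, covers only those averaging 5 CPM or more, so it is not a like measure. Which part stromal RNA had in these counts was not tested.

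Macrophage-like cells, which had 8 of 8 macrophage markers raised, had 15.2 CPM (14.3 to 16.3) of Cxcl10, between 13.2 and 17.4 CPM over the libraries. Blood endothelial-like cells, the class with the highest Cxcl9 level, had 19.5 CPM (15.4 to 24.4) of Cxcl10, with a UMI in 9.19%. Cluster 8 in turn had 1.32 CPM (0.895 to 1.87) of Cxcl9. Of the main sources, APC-like cells held a large share of both neighbouring genes.

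**Figure D3:**
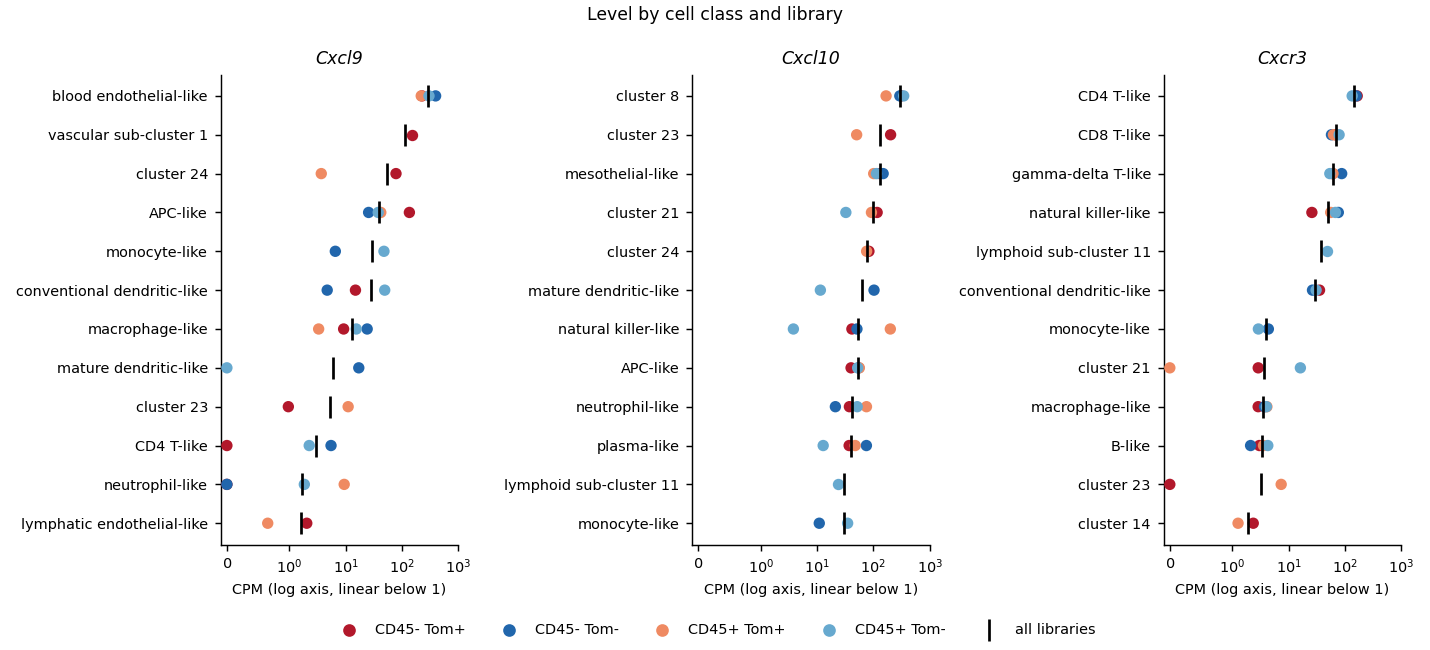
Level of each gene (CPM, on an axis that is logarithmic above 1 and linear below) in the 12 classes of at least 50 cells where it was highest. Coloured points are libraries with at least 20 cells of the class and black ticks are all libraries together; Cxcl9 leads in blood endothelial-like cells at 289 CPM, Cxcl10 in cluster 8 at 302 CPM and Cxcr3 in CD4 T-like cells at 145 CPM.

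Over 48 sums of class and library with at least 50 cells, from 19 classes, the log levels of Cxcl9 and Cxcl10 had a Pearson r of -0.06. The genes most like Cxcl9 by this measure, among 10346 genes, were Fabp4 (r = 0.83), a fatty acid binding protein of adipocytes and capillary endothelium, Sparcl1 (0.83), Col28a1 (0.83), Pcdh19 (0.83) and Pcdh1 (0.83). Those most like Cxcl10 were Cdh2 (0.85), which encodes N-cadherin, Nr1h4 (0.81), the bile acid receptor FXR, Cadm4 (0.81), Steap1 (0.80) and Rpp25 (0.80). Sums of 1 class share their cell type and sums of 1 library their depth, so these values describe class patterns.

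Cells carrying both ligands were few but more than independent detection gave. UMIs of Cxcl9 and of Cxcl10 were found together in 185 cells, where the shares of each class and library would give 118 if the genes were found independently. APC-like cells accounted for 102 of them, against 60.8, and blood endothelial-like cells for 22, against 17.8. Cells with both were also deeper, with a median of 29239 UMIs against 22703 for cells with Cxcl9 alone and 28392 for cells with Cxcl10 alone. At least 10 UMIs of each were present in 16 cells, of which 12 were APC-like.

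The cells richest in Cxcl9 or Cxcl10 were then compared with cells of the same class that had 0 UMIs of that gene. In APC-like cells the interferon-induced genes were higher as a group. For 43 cells with at least 10 Cxcl9 UMIs against 3181 with 0, all 13 measured interferon gamma-induced genes (those averaging 5 CPM or more) were at least 2-fold higher, with a median log2 ratio of 2.62, and 10 of 11 type I interferon-induced genes were, with a median of 2.80. Of all genes 2% were at least 2-fold higher, and the median of all genes was 0.01. For example, Gbp2 was at 469 CPM against 45.0, Tap1, a peptide transporter for MHC class I, at 119 against 22.2, Isg15, an interferon-induced ubiquitin-like protein, at 194 against 19.0 and Rsad2, the antiviral enzyme viperin, at 125 against 7.64. The average of 5 CPM was taken over both groups, so a gene could pass by its level in the rich cells alone. With at least 1 Cxcl9 UMI instead of 10, 5 of 12 interferon gamma-induced genes were 2-fold higher (median log2 0.82). So were 6 of 10 type I-induced genes (1.54), against 0.347% of all genes.

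The same held for Cxcl10 in APC-like cells. In 100 cells with at least 10 UMIs against 3069 with 0, 12 of 13 interferon gamma-induced genes were at least 2-fold higher (median log2 2.0), as were 12 of 12 type I-induced genes (2.90), against 1.31% of all genes. Ifit1, which binds foreign RNA, was at 219 CPM against 13.4 and Gbp2 at 240 against 42.4. Ccl2, which attracts monocytes, was at 2065 CPM against 483. The rich cells were deeper, with a median of 30248.5 UMIs against 21974, the interferon gamma pathway list had 3 of 8 genes 2-fold higher (0.52), and dissociation stress genes stood at a median log2 of 0.06. Here too a gene could pass the 5 CPM threshold by its level in the rich cells alone. With at least 1 Cxcl10 UMI instead of 10, 4 of 11 interferon gamma-induced genes were 2-fold higher (median log2 0.78). So were 4 of 9 type I-induced genes (0.96), against 0.326% of all genes.

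The pattern in APC-like cells was present in both libraries that held enough cells. For Cxcl9, 11 of 13 interferon gamma-induced genes were 2-fold higher in the library labelled CD45- Tom- and 13 of 13 in CD45+ Tom-. Of all genes 3.43% and 4.26% were. Among cells whose barcode was in 1 library only, all 13 were 2-fold higher for both chemokines. Of all genes 4.88% were for Cxcl9 and 2.53% for Cxcl10. The type I list fell there to a median log2 of 1.63 (6 of 10 genes) for Cxcl9 and 1.27 (7 of 9) for Cxcl10. By the rule of highest ratio, the 5 leading genes of APC-like cells with any Cxcl9 UMI were Cxcl10 (183 CPM against 30.6), Ifit3 (66.2 against 12.8), Ifit1 (60.2 against 15.5), Isg15 (72.2 against 19.0) and the GTPase Iigp1 (151 against 47.3).

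In blood endothelial-like cells the difference was smaller. For 35 cells with at least 10 Cxcl9 UMIs against 164 with 0, 8 of 13 interferon gamma-induced genes (median log2 1.16) and 9 of 11 type I-induced genes (1.37) were at least 2-fold higher, against 5.29% of all genes. Cells with a Cxcl9 UMI were unequally spread over the endothelial sub-clusters, as given above, and the part of this in the contrast was not tested. Gbp2 was at 351 CPM against 94.3 and Rsad2 at 322 against 154. The inflammatory list went the other way, with 4 of 8 genes at least 2-fold lower, against 6.81% of all genes, and a median of -1.16. Ccl2 was at 17.0 CPM against 63.4 and Il6 at 20.7 against 94.8. The leading genes of endothelial cells with any Cxcl9 UMI were not interferon genes: Fabp5, another fatty acid binding protein, was at 1669 CPM against 600, Rasgrp2 at 80.6 against 28.7, the carbonic anhydrase Car4 at 435 against 159, Kcna5 at 57.3 against 21.1 and Fam102b at 77.3 against 29.8.

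In cluster 8 and mesothelial-like cells, interferon genes differed less between rich cells and the rest than in APC-like cells, a contrast that was not tested. For 190 cells of cluster 8 with at least 10 Cxcl10 UMIs against 323 with 0, none of 12 interferon gamma-induced genes was 2-fold higher (median log2 0.29) and 2 of 11 type I-induced genes were (0.43), against 0.123% of all genes. Inflammatory genes reached 3 of 6 with a median of 0.77, and Ccl2 was at 2135 CPM against 981 and Cxcl2, which attracts neutrophils, at 253 against 120. The library labelled CD45- Tom- stood apart, with 7 of 11 type I-induced genes 2-fold higher (median log2 1.16), against 3 of 11, 1 of 10 and 0 of 11 in CD45- Tom+, CD45+ Tom+ and CD45+ Tom-. Of all genes 1.28% were 2-fold higher in CD45- Tom-, and 1.33%, 5.11% and 0.453% in the others, in that order. Nor was the inflammatory difference seen everywhere, since in CD45+ Tom- none of 6 genes was 2-fold higher (median 0.13).

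Mesothelial-like cells resembled cluster 8 in this. For 99 cells with at least 10 Cxcl10 UMIs against 460 with 0, none of 12 interferon gamma-induced and none of 11 type I-induced genes was 2-fold higher (median log2 0.27 for each list), while 3 of 6 inflammatory genes were (0.96), against 0.24% of all genes. By library the inflammatory median was -0.26 in CD45- Tom+ (10 rich cells), 0.36 in CD45- Tom- and 1.39 in CD45+ Tom-, so its sign differed between libraries. Ccl2 was at 971 CPM against 282, Il6 at 189 against 81.3 and Cxcl1 at 1039 against 457. Gbp2 was at 468 CPM in the rich cells and 480 in those with 0, so it was high in this class with or without Cxcl10.

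**Figure D4:**
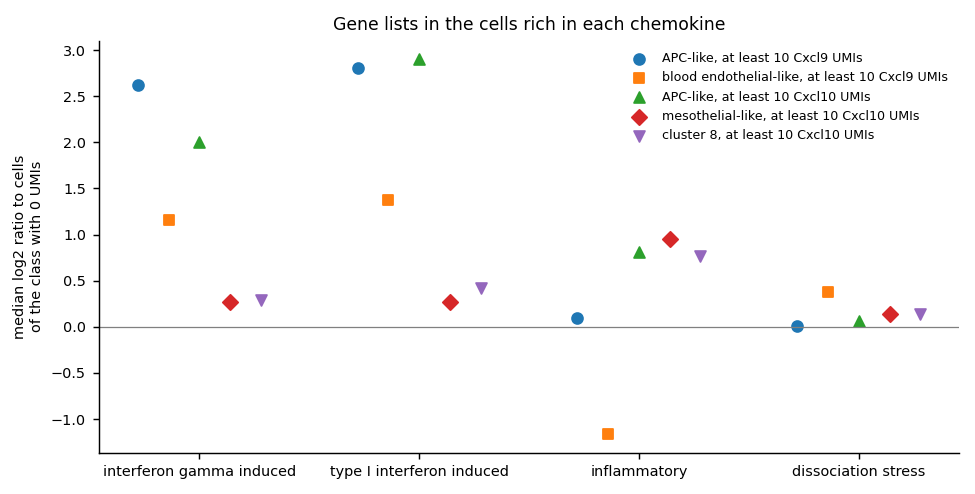
Median log2 ratio of 4 gene lists in cells with at least 10 UMIs of a chemokine against cells of the same class with 0 UMIs, for genes averaging 5 CPM or more. Each symbol is 1 class and chemokine; both interferon lists lie between 2.0 and 2.90 in APC-like cells and between 0.27 and 0.43 in mesothelial-like cells and cluster 8.

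Cxcl9 in macrophage-like cells came with transcripts known from other cell types. Of the receiver cell genes, 7 of 10 were at least 2-fold higher (median log2 1.61) in the cells described next. In the 74 macrophage-like cells with a Cxcl9 UMI, all 6 T cell markers and 6 of 7 blood endothelial markers were at least 2-fold above the 2600 cells with 0. So were all 5 mature dendritic, 4 of 6 mural and 4 of 6 group 2 innate lymphoid markers, but no APC, neutrophil, mast or plasma cell marker. These markers were counted at any level, and the 6 mural ones summed to only 15.2 against 4.88 CPM. The share of all genes, 2.62%, covers only those averaging 5 CPM or more, so it is not a like measure. The summed T cell markers stood at 285 CPM against 56.6, the blood endothelial markers at 90.0 against 18.8 and the mature dendritic markers at 57.9 against 12.5. Per cell the T cell sum ran from 0 to 2486 CPM with a median of 0. The macrophage markers were level, at 9202 against 9188 CPM. Which part cells of other types had in these counts was not tested. Of the interferon gamma-induced genes, 10 of 15 were at least 2-fold higher in the cells with a Cxcl9 UMI (median log2 1.16). Of 8 type I-induced genes, 1 was at least 2-fold higher and 2 at least 2-fold lower (median log2 -0.34). Of all genes 2.62% were higher and 0.664% lower by that fold. The leading genes were Cxcl10 (119 CPM against 11.7), Gbp2 (215 against 25.1), Serpina3g (54.4 against 8.23), Ctla2a (110 against 18.0) and Gimap4 (51.3 against 8.28).

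The level of Cxcl10 in cells with and without a UMI of Cdkn2a, the gene whose promoter drives the reporter, differed in direction between classes. It was lower in cells with a Cdkn2a UMI among APC-like cells (37.6 against 54.3 CPM), mesothelial-like cells (88.1 against 131 CPM, with 24 cells in the former), macrophage-like cells (4.23 against 16.2 CPM) and plasma-like cells (31.7 against 42.1 CPM). Lymphatic endothelial-like and gamma-delta T-like cells were lower too (4.37 against 16.6 and 18.5 against 24.2 CPM). Among APC-like cells the share with a Cxcl10 UMI was higher, at 18.5% with a Cdkn2a UMI against 14.4% without. The former were deeper (median 33037 against 21955.5 UMIs), and their cells held at most 45 Cxcl10 UMIs against 288. After thinning the shares were 4.69% against 4.18%, while the other classes named so far kept the lower share. Both genes were in 43 APC-like cells, against 34.1 by independent detection. By level, clusters 8, 14 and 21 were higher in cells with a Cdkn2a UMI. In the unnamed cluster 14, with 8 of 8 macrophage and 5 of 6 plasma cell markers raised, the level was 59.5 against 20.6 CPM, with 27 cells in the former. In the unnamed cluster 21 it was 103 against 96.4 CPM, with overlapping intervals. The 260 cells of cluster 8 with a Cdkn2a UMI had 314 CPM of Cxcl10 (303 to 326). Its 504 cells without had 293 CPM (284 to 302). Of the 3126 Cxcl10 UMIs in the cells with a Cdkn2a UMI, 195 were in 1 cell. The level without that cell was not computed. A Cxcl10 UMI was found in 57.7% of each group, although cells with a Cdkn2a UMI were deeper, with a median of 38861.5 UMIs against 26975. After thinning the shares were 26.0% with a Cdkn2a UMI and 27.0% without. Both genes were found in 150 cells of cluster 8, where independent detection would give 149. Cdkn2a was named here after its values were seen.

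The receptor lay in lymphocytes. The 1303 cells of all lymphoid sub-clusters had 71.4 CPM (66.0 to 77.1) of Cxcr3, a UMI in 31.0% of cells and 57.7% of its UMIs. Their level was 62.9 CPM (54.5 to 72.2) in CD45- Tom+, 86.8 CPM (73.5 to 102) in CD45- Tom-, 59.0 CPM (45.7 to 74.9) in CD45+ Tom+ and 76.3 CPM (66.8 to 86.9) in CD45+ Tom-. Both Tom- libraries were above both Tom+ libraries, with overlapping intervals between most of them. Non-receiver classes were far lower, with 0.222 CPM (0.134 to 0.346) in APC-like and 0.219 CPM (0.00555 to 1.22) in mast-like cells.

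By lymphoid class the order was CD4 T-like, CD8 T-like, gamma-delta T-like and natural killer-like cells. The 192 CD4 T-like cells had 145 CPM (122 to 170), with a UMI in 45.3%, and their levels were 166, 159 and 135 CPM in CD45- Tom+, CD45- Tom- and CD45+ Tom-, with 7 cells in the library labelled CD45+ Tom+. CD8 T-like cells had 70.1 CPM (60.8 to 80.4), gamma-delta T-like cells 62.4 CPM (54.5 to 71.2) and natural killer-like cells 49.3 CPM (35.9 to 66.2). The intervals of neighbours among these last 3 overlapped, and only the CD4 T-like level stood clear of the others' counting error. After thinning to 2000 UMIs the shares of cells with a UMI were 25.3%, 12.6%, 11.4% and 10.3% in that order. Thinned mast-like cells gave 0.0278%.

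Outside lymphocytes, the dendritic sub-clusters led by Xcr1 and Clec9a carried Cxcr3 as well. They had 54.0 CPM (43.9 to 65.8) and a UMI in 66.7% of 72 cells, or 12.3% after thinning, and their levels were 80.2, 48.0 and 51.6 CPM in the libraries with 10, 26 and 34 such cells, CD45- Tom+, CD45- Tom- and CD45+ Tom-. This class held 8.79% of all Cxcr3 UMIs. The 2674 macrophage-like cells had 3.58 CPM (3.11 to 4.09) and 18.9% of the UMIs, with a level between 2.88 and 4.12 CPM over the libraries. Of the 151 macrophage-like cells with a Cxcr3 UMI, 29 also had a UMI of Ifng, which encodes interferon gamma. Independent detection would give 3.97. Which part cells of other types had in these counts was not tested. B-like cells had 3.31 CPM (1.99 to 5.17).

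The genes most like Cxcr3 over the 48 sums were Cd226 (r = 0.94), an activating receptor, Cd3g (0.91), a T cell receptor chain, Klrk1 (0.90), which encodes NKG2D, Tbx21 (0.90), the type 1 transcription factor T-bet, and Tnfrsf18 (0.90). Ifng, the interferon gamma gene, had an r of 0.77 with Cxcr3. Its level, named here after its values were seen, was 155 CPM in CD4 T-like, 144 CPM in natural killer-like, 77.6 CPM in CD8 T-like and 9.16 CPM in gamma-delta T-like cells. The highest Ifng level was in lymphoid sub-cluster 12, 39 unnamed cells with 376 CPM (305 to 458). APC-like cells had 0.467 CPM of Ifng. Other genes of receiver cells were highest elsewhere: Ccr2, the receptor for CCL2, in monocyte-like cells (1117 CPM) and Cxcr4, the CXCL12 receptor, in neutrophil-like cells (767 CPM). Cxcr3 and Ifng were found together in 100 lymphoid cells, where 87.0 were given by independence.

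The receptor side of interferon gamma was widespread. Ifngr1 was at 1038 CPM in gamma-delta T-like, 317 CPM in blood endothelial-like, 154 CPM in APC-like and 57.6 CPM in cluster 8 cells. Ifngr2 was at 29.8 CPM in blood endothelial-like, 44.9 CPM in APC-like and 71.1 CPM in cluster 8 cells. Jak1 was highest in natural killer-like cells, at 703 CPM, and Jak2 in mature dendritic-like cells, at 669 CPM.

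Genes whose products bind or trim chemokines had sources of their own. Ackr1, a chemokine-binding receptor that does not signal through G proteins, was highest in blood endothelial-like cells, at 75.9 CPM, the class with the highest level of Cxcl9. Ackr2, which takes up inflammatory CC chemokines, was highest in lymphatic endothelial-like cells, at 127 CPM. Ackr3, which binds CXCL11, was highest in APC-like cells, at 192 CPM. Dpp4, a protease that trims the amino end of CXCL10, was at 226 CPM in mature dendritic-like and 225 CPM in mesothelial-like cells. In APC-like cells with at least 10 Cxcl9 UMIs, 2 of the 3 measured genes of this list were at least 2-fold lower, as were 1.82% of all genes.

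The reporter label was then compared within each CD45 label, as the log2 ratio of the Tom+ to the Tom- library. Over all cells the ratio of Cxcl9 was -0.32 (-0.42 to -0.22) for the libraries labelled CD45- and -1.74 (-1.90 to -1.58) for those labelled CD45+. The ratio of Cxcl10 was -0.64 (-0.69 to -0.59) and -0.66 (-0.73 to -0.59), and that of Cxcr3 0.05 (-0.19 to 0.29) and -0.51 (-0.80 to -0.23). The median of all genes lay at -0.46 and -0.47 and plasma-like cells numbered 826 and 426 in the Tom+ libraries against 39 and 58 in their Tom- partners, and the part of this in the ratios over all cells was not tested. At least 2-fold lower in Tom+ were 19.6% of all genes for CD45- and 18.3% for CD45+, and of the 3 members only Cxcl9, for CD45+, was. With only barcodes found in 1 library, the Cxcl9 ratio of CD45- turned to 0.52.

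Within APC-like cells, Cxcl9 was higher in Tom+ for CD45-, at 136 against 25.6 CPM, a log2 ratio of 2.41 (2.27 to 2.55), where 1.34% of genes were at least 2-fold higher. Without the cell of most UMIs in each library this ratio was 1.07. Of the 809 Cxcl9 UMIs in Tom+, 557 were in 1 cell, which had only 1 UMI of tdTomato. For CD45+ the ratio was 0.15 (-0.14 to 0.43), and the difference between the CD45 labels was not tested. Cxcl10 had ratios of -0.45 (-0.65 to -0.26) for CD45- and 0.10 (-0.15 to 0.34) for CD45+. The former turned to 0.31 when doublets were kept and to 0.061 with only barcodes found in 1 library.

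In macrophage-like cells Cxcl9 was lower in Tom+ under both labels, by log2 ratios of -1.39 (-1.66 to -1.12) and -2.22 (-2.79 to -1.69), where 1.22% and 1.6% of genes were at least 2-fold lower. With only barcodes found in 1 library the first turned to 1.30. In blood endothelial-like cells, compared for CD45- only, the ratio was -0.81 (-1.05 to -0.57), and with the vascular sub-cluster included it was -0.74, but -0.21 without the cell of most UMIs in each library and 0.036 after thinning to 2000 UMIs. The direction for Cxcl9 differed between classes and settings.

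Cxcl10 in cluster 8 was level for CD45-, at 0.08 (-0.01 to 0.17), and lower in Tom+ for CD45+, at -1.04 (-1.19 to -0.89), where 2% of genes were at least 2-fold lower. With mesothelial-like cells included, the ratio was 0.37 for CD45- and -0.48 for CD45+. These became -0.43 and -0.17 with only barcodes found in 1 library, and -0.32 and -0.85 with cells thinned to 2000 UMIs. In mesothelial-like cells for CD45- the ratio was -0.19 (-0.40 to 0.01). In plasma-like cells for CD45+ it was 1.89 (1.35 to 2.49), from 47.5 against 12.8 CPM, where 0.835% of genes were at least 2-fold higher, and the lower value rested on 28 UMIs in 58 cells. Under CD45- the levels lay the other way, at 37.1 CPM in Tom+ and 75.2 CPM in Tom-, with 39 cells in the latter, and no ratio was made. In all lymphoid sub-clusters it was -0.28 (-0.85 to 0.30) for CD45- and 1.38 (0.77 to 1.98) for CD45+, from 42.3 against 16.3 CPM, where 3.57% of genes were. The latter fell below 2-fold under 3 settings, at 0.10 with cells thinned to 2000 UMIs, 0.46 with equal weight per cell and 0.66 without the cell of most UMIs in each library, and 25 of the 48 UMIs in CD45+ Tom+ were in 1 cell. In B-like cells for CD45- it was 1.98 (0.56 to 3.73) from 23 and 5 UMIs, where 2.36% of genes were, and for CD45+ -0.08 (-3.36 to 2.24) from 2 and 8 UMIs.

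Cxcr3 in all lymphoid sub-clusters had ratios of -0.46 (-0.78 to -0.15) for CD45- and -0.37 (-0.79 to 0.03) for CD45+, neither past 2-fold, which 4.59% and 5.59% of genes were on the lower side. In gamma-delta T-like cells they were -0.55 (-1.10 to 0.03) and 0.19 (-0.50 to 0.88), and in CD8 T-like cells for CD45- 0.24 (-0.40 to 0.89). These intervals include 0 but are wide enough to hold differences in either direction. Gamma-delta T-like cells were 261 of 440 lymphoid cells in CD45- Tom+ and 56 of 279 in CD45- Tom-, and 93 of 170 and 83 of 414 in the CD45+ libraries, so the makeup of the classes and the reporter label cannot be told apart here.

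**Figure D5:**
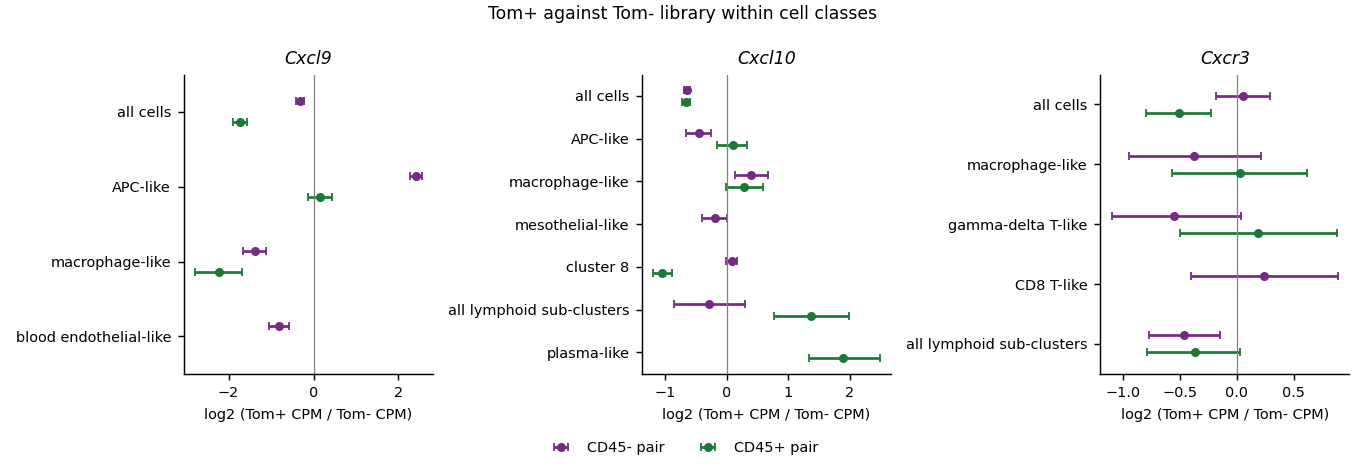
Log2 ratio of the Tom+ to the Tom- library for Cxcl9, Cxcl10 and Cxcr3, over all cells and within classes with at least 50 cells and 20 UMIs in both libraries. Points are ratios of summed CPM and whiskers 95% intervals for counting error, with 1 library on each side; the largest ratio, 2.41 for Cxcl9 in APC-like cells for the libraries labelled CD45-, was 1.07 without the cell of most UMIs in each library.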

How the data were processed

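The authors prepared 10x Genomics Chromium 3′ v3.1 libraries from sorted stromal vascular cells and deposited, per library, a matrix of whole-number UMI counts per gene and barcode. The submitters' processing notes name Cell Ranger 3.0.2 and mm10. The counts were used without normalisation by the authors, and the gene table holds a tdTomato row. The 4 libraries hold 64083756 to 139397501 UMIs in 3429 to 11255 barcodes.

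Kept barcodes had more than 1000 genes, fewer than 7000 and less than 8% of UMIs from mitochondria, Scrublet in scanpy 1.11.5 scored doublets, and those of highest score (0.8% per 1000 barcodes), 54 to 427 a library, were left out. Cells were clustered on 30 principal components of 2000 variable genes, with 15 neighbours and Leiden resolution 1 (leidenalg 0.10.2), and lymphoid, dendritic and vascular clusters were clustered again, without the members and gene lists. By thresholds set after seeing the data, a class needed at least 3 markers at 20 CPM or more and 4 times the median cluster. CPM carry exact Poisson intervals, shares exact Clopper-Pearson intervals, and ratios the conditional exact interval of Poisson counts. A count of 0 was given a floor of 3 counts. Calls mean 2-fold, over genes averaging 5 CPM or more across both groups, and ratios of levels between cells add 1 CPM to both sides. Counts of raised markers between cells of a class had no such threshold and could include markers at 0 in both groups. The computation was tested on simulated data. Cells are not replicates, so no p-value is given.

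The members, gene lists (interferon gamma pathway, interferon gamma-induced, type I interferon-induced, inflammatory, scavenging, receiver cell and dissociation stress genes) and markers were chosen with earlier results of these data known. Named from each list were at most the 5 genes of highest mean CPM, and beyond these the 5 most like each member and the 5 of highest ratio in cells with a UMI of a chemokine. Cluster leading genes and genes said so in the text were named after their values were seen. Positions are from GENCODE M21. All 3 members had a RefSeq promoter, and that of Cxcr3 is not shown.

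Alternatives were looser barcode filters, kept doublets, equal weight per cell, thinning to 2000 UMIs, barcodes found in 1 library only, finer clustering, 4000 variable genes and at least 2 UMIs of each gene. Leaving out the cell with most UMIs was chosen after seeing the data.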

Additional observations from a re-analysis of the deposited data

Results flagged for a closer look

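The barcodes left out by the filters also carried the members' transcripts. They held 3187 UMIs of Cxcl9 (34.9% of its total), 11792 of Cxcl10 (36.9%) and 695 of Cxcr3 (38.2%), against 31.5% of all UMIs. The level in these barcodes was 22.5 CPM of Cxcl9, 83.2 CPM of Cxcl10 and 4.91 CPM of Cxcr3, and in the kept cells 19.3, 65.3 and 3.65 CPM. In the library labelled CD45- Tom+ it was 90.2 CPM of Cxcl10 in the barcodes left out and 53.4 CPM in the kept cells.

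Where every library had at least 20 UMIs of the gene in the class, the log2 ratio of Tom+ to Tom- had opposite signs under the labels CD45- and CD45+ in 6 cases. With 1 library on each side, none of these differences was tested. Cxcl10 had ratios of -0.45 and 0.10 in APC-like cells, -0.28 and 1.38 in all lymphoid sub-clusters (the latter 0.10 with cells thinned to 2000 UMIs), and 0.08 and -1.04 in cluster 8. Cxcr3 had ratios of 0.05 and -0.51 over all cells, -0.55 and 0.19 in gamma-delta T-like cells, and -0.37 and 0.03 in macrophage-like cells. The ratios whose intervals left out 0 were those of Cxcl10 in APC-like cells for CD45-, Cxcl10 in all lymphoid sub-clusters and in cluster 8 for CD45+, and Cxcr3 over all cells for CD45+.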

How the results depend on the processing

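No paired analysis was possible because each group was 1 library and no test was made. Of 216 recomputed values, 102 stayed within their counting interval (for counts of cells, within 1.5 times), 105 moved further and 9 were ratios whose interval left out 0 and that took the other sign. Counting ratios of either kind, 26 took the other sign. The cause was not tested. Depth limits the values of Cxcr3, with 1126 UMIs in all.

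With looser barcode filters, Cxcl9 was at 24.9 CPM in CD45- Tom- and 27.4 in CD45+ Tom-, Cxcl10 at 65.6 in CD45- Tom+, 51.7 in CD45+ Tom+ and 77.5 in CD45+ Tom-, and Cxcr3 at 4.04 in CD45- Tom- and 5.01 in CD45+ Tom-. Log2 ratios over all cells were then -0.59 for Cxcl9, -0.36 for Cxcl10 and -0.30 for Cxcr3 under CD45-, and -0.58 for Cxcl10 under CD45+.

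With doublets kept, Cxcl9 was at 25.3 CPM in CD45- Tom-, Cxcl10 at 56.4, 80.6 and 70.8 in CD45- Tom+, CD45- Tom- and CD45+ Tom-, and Cxcr3 at 4.79 in CD45+ Tom-. Under CD45- the all-cell ratios were -0.61 for Cxcl9 and -0.52 for Cxcl10, that of Cxcl9 in APC-like cells 1.55 and those of Cxcl10 in APC-like and macrophage-like cells 0.31 and -0.045. Under CD45+ that of Cxcl9 in APC-like cells was -0.28. Shares of UMIs were 61.1% of Cxcl9 in APC-like and 18.5% in vascular cells, 50.7% of Cxcl10 in mesothelial-like cells and cluster 8 and 24.7% in APC-like cells, and 49.7% of Cxcr3 in lymphoid cells.

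With equal weight per cell, Cxcl9 was at 23.0, 10.2 and 31.4 CPM in CD45- Tom-, CD45+ Tom+ and CD45+ Tom-, Cxcl10 at 43.5, 67.7, 37.8 and 57.6 and Cxcr3 at 9.24, 8.66, 6.91 and 9.78, each in the order CD45- Tom+ and Tom-, then CD45+ Tom+ and Tom-. The CD45- ratios of Cxcl9 were -0.43 over all cells and 2.06 in APC-like cells.

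With cells thinned to 2000 UMIs, the CD45- ratios were -0.46 for Cxcl9 and -0.89 for Cxcl10 over all cells, 1.93 for Cxcl9 in APC-like and 0.036 in vascular cells, and -0.029 and -0.32 for Cxcl10 in macrophage-like cells and in mesothelial-like cells with cluster 8. The CD45+ ratio of Cxcl10 was -0.83. A UMI was then found in 2.51% of APC-like and 29.4% of vascular cells for Cxcl9, 20.5% of mesothelial-like and cluster 8 cells for Cxcl10 and 13.5% of lymphoid cells for Cxcr3. The top 1% of cells held 81.3%, 50.6% and 74.5% of the UMIs of Cxcl9, Cxcl10 and Cxcr3.

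With barcodes found in 1 library only, the CD45- ratios over all cells were 0.52, -0.30 and -0.30 for Cxcl9, Cxcl10 and Cxcr3, and the CD45+ ratios -2.04, -0.15 and -1.01. Those of Cxcl9 were 3.64 and -0.48 in APC-like cells under CD45- and CD45+ and 1.30 in macrophage-like cells under CD45-, and those of Cxcl10 0.061 in APC-like cells and -0.43 in mesothelial-like cells with cluster 8. APC-like cells held 56.0% of Cxcl9 and 18.2% of Cxcl10, vascular cells 28.4% of Cxcl9, mesothelial-like cells and cluster 8 39.6% of Cxcl10 and lymphoid cells 67.5% of Cxcr3, and the top 1% of cells 81.8%, 50.9% and 36.3% of the 3 genes.

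With 4000 variable genes, APC-like cells held 61.8% of Cxcl9 and 24.3% of Cxcl10 and lymphoid cells 52.7% of Cxcr3. At Leiden resolution 2, 28.4% of Cxcl10 UMIs were in the mesothelial classes, where 46.7% of cells had one, and 46.4% in APC-like cells. With at least 2 UMIs of each gene, Cxcl9 and Cxcl10 were together in 70 cells, Cxcl9 and Cxcr3 in 7 and Cxcl10 and Cxcr3 in 10.

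Without the cell with most UMIs in each library, chosen after seeing the data, Cxcl9 was at 11.2, 18.7 and 24.1 CPM and Cxcl10 at 50.3, 79.4 and 70.6 in CD45- Tom+, CD45- Tom- and CD45+ Tom-, and the CD45- ratios of Cxcl9 were -0.74 over all cells and 1.07 in APC-like cells.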
